A study of Mus musculus with 2 samples.

Results

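The splicing factors described here are the SR proteins, their relatives and kinases, the hnRNP proteins and a few further regulators, measured in ATDC5, a mouse cell line that can be driven along the chondrocyte pathway. Members were the genes whose symbol is Srsf or Hnrnp with its suffix, Tra2a, Tra2b, Clk1 to Clk4, Ptbp1, Ptbp2, Tia1, Tial1, Sarnp, Son, Srrm1 or Srrm2, read from probe sets annotated with exactly 1 gene symbol. This gave 43 genes of 18193, read by 143 probe sets of 45037, and each gene was represented by its brightest probe set. By role, 15 were SR proteins or SR-like factors, 19 hnRNP proteins, 4 CLK kinases and 5 other regulators.

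The CHX+Nell-1 array came from serum-starved cells pretreated for 30 min with 10 μg/ml of cycloheximide (CHX), which blocks protein synthesis, and then given recombinant human Nell-1, a secreted glycoprotein that promotes bone and cartilage formation, at 100 ng/ml for 30 min. In the CHX+PBS array the cells had the same starvation and the same CHX, and PBS in place of Nell-1. The series was designed to find genes that respond to Nell-1 without new protein. There was 1 Affymetrix array per condition, so no test was possible, no value carries an error between cultures, and "higher" and "lower" below compare 2 RNA samples.

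SR proteins carry RNA recognition motifs and a tail of repeated arginine and serine residues, and mostly promote the use of the exons they bind. The hnRNP proteins coat nascent transcripts and often act the other way, by masking splice sites or enhancers. CLK kinases phosphorylate the tail of SR proteins and release them from nuclear speckles. Many SR and hnRNP genes limit their own expression through poison exons, whose inclusion sends the mRNA to nonsense-mediated decay, a process that requires translation. CHX, present on both arrays, blocks that decay, and whether the probe sets read such isoforms was not tested.

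Both arrays had a 2% trimmed mean signal of 500.0, as scaled by the authors. As a measure of RNA quality, the 3' over 5' signal ratio for beta-actin was alike, at 1.28 with Nell-1 and 1.32 with PBS. That for Gapdh was alike too, at 0.858 with Nell-1 and 0.848 with PBS. Dimmer control transcripts were less alike. For pyruvate carboxylase the log2 ratio of Nell-1 over PBS was -0.38 at the 3' end and -1.64 at the 5' end. On its middle probe sets the log2 ratio was 0.02 and -0.03. For the transferrin receptor it was 1.14 at the 3' end and -0.56 at the 5' end, both read below the median signal, where ratios are unstable. The 24 poly-A spike-in probe sets, which read bacterial RNAs added before labelling, were all lower on the Nell-1 array, with a median log2 ratio of -0.49. The 18 hybridisation spike-in probe sets were also all lower on it, with a median log2 ratio of -0.18. The part of these differences in the ratios below was not tested. Chondrocyte markers were present in part. Sox9, the leading chondrocyte transcription factor, measured 2577 with Nell-1 and 3375 with PBS, and the cartilage collagen gene Col2a1 measured 1206 with Nell-1 and 909 with PBS. Of 12 chondrocyte markers 7 lay at or above the median signal. Of these, Acan and Sox6 were at least 1.5-fold higher with Nell-1 (log2 ratios of 0.74 and 0.70) and none at least 1.5-fold lower. Comp, Matn1, Hapln1, Snorc and Cytl1 lay below the median signal. All 5 were at least 1.5-fold lower, with log2 ratios from -2.17 to -0.89. In that dim range 66.7% of probe sets pass 1.5-fold either way. The median over the 12 markers was -0.25. Of 8 fibroblast and mesenchymal markers 7 lay above the median signal, with a summed signal of 130538 with Nell-1 and 147338 with PBS. The part of these markers in the ratios below was not tested. Only 1 of 7 neuronal markers (Syp), 2 of 5 epithelial markers (Esrp2 and Epcam) and 1 of 3 measured haematopoietic markers (Cd68) lay at or above the median signal.

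Most splicing factors differed little between the arrays, and among members at or above the median signal those that differed most were higher with Nell-1. At the 1.5-fold threshold of the series, 3 of 43 members were higher (Clk4, Sarnp and Hnrnpa1), 1 was lower (Srsf12) and 39 were neither. Over all genes 13.1% were at least 1.5-fold higher and 19.0% at least 1.5-fold lower. The share depends strongly on signal, and 42 of the 43 members lay at or above the median signal of 64.3. Probe sets and genes in that upper part are called bright below. Of those 42 members 7.14% were higher and 0.0% lower, against 4.56% higher and 7.53% lower among the 11600 genes there. Brightness narrowed the background further. Of the members, 32 lay in the brightest of 10 signal bins and 7 in the next, and in these 2 bins together 1.92% of 5845 genes were higher and 1.59% lower. Of the 3 higher members, Sarnp and Hnrnpa1 lay in the brightest bin. Clk4 lay in the bin below these 2, where 4.29% of 2426 genes were higher and 5.07% lower.

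**Figure D1:**
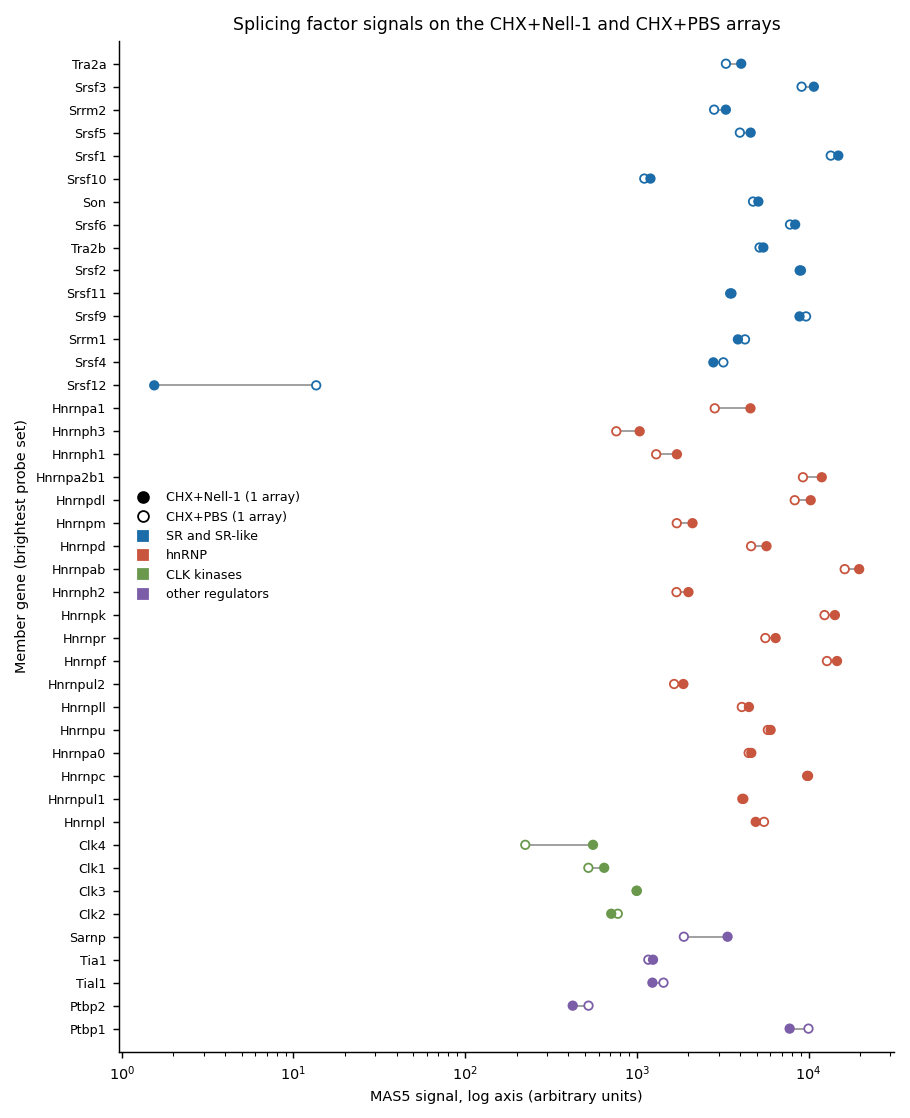
MAS5 signal (log axis, arbitrary units) of each of the 43 members on the CHX+Nell-1 array (filled points) and the CHX+PBS array (open points), 1 array each, coloured by role and ordered within a role by ratio. Most pairs nearly overlap, the filled point is to the right for 31 genes, and Clk4, Sarnp, Hnrnpa1 and Srsf12 show the widest gaps.

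As a group the members lay slightly on the higher side. Their median log2 ratio (Nell-1 over PBS) was 0.14, with 31 higher than 0 and 12 lower, beside a median of -0.06 over all genes and -0.03 over genes at or above the median signal. The share above 0 was 72.1% of the members, against 48.6% of the genes in the 2 brightest bins, where the median over all genes was -0.01. The medians were unlike between roles, which was not tested. The hnRNP proteins had a median of 0.20 with 17 of 19 above 0, the SR and SR-like factors 0.10 with 10 of 15, the CLK kinases 0.15 with 2 of 4, and the other regulators -0.21 with 2 of 5. A single gene's ratio can be read against the robust SD of the log2 ratio at its signal, which was 0.21 in the brightest bin, 0.28 in the next and 0.33 in the bin below that, and which mixes noise with real differences. By that yardstick 15 members stood past it on the higher side and 2 (Ptbp1 and Srsf12) on the lower. Of the 39 members in the 2 brightest bins 14 were past it on the higher side and 1 on the lower, against 17.5% higher and 15.5% lower among all genes of those bins.

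**Figure D2:**
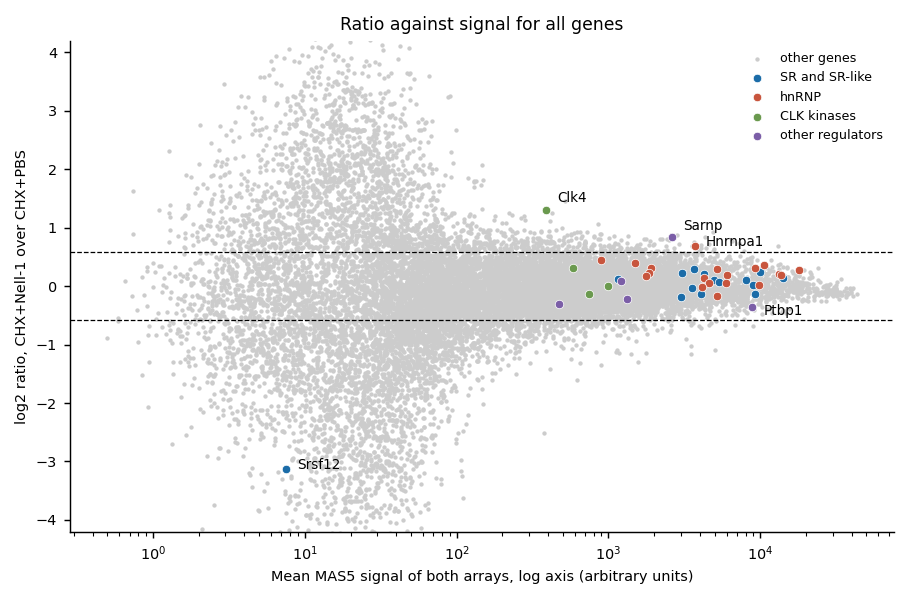
Log2 ratio of CHX+Nell-1 over CHX+PBS against the mean MAS5 signal of both arrays (log axis, arbitrary units) for all genes (grey; 108 genes beyond 4.2 either way are not drawn) and for the 43 members (coloured by role), with dashed lines at 1.5-fold. The grey cloud narrows with signal, and apart from Srsf12 the members sit in its narrow bright part, with Clk4, Sarnp and Hnrnpa1 above the upper line.

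Clk4, a kinase of SR proteins, had the largest ratio among members at or above the median signal. It measured 556 with Nell-1 and 224 with PBS on its brightest probe set, 2.48-fold higher. Its second probe set was higher by less, at 286 with Nell-1 and 215 with PBS, a log2 ratio of 0.41 against 1.31 on the first. Both are of the type that reads several transcripts of 1 gene. Sarnp encodes a nuclear protein of the TREX complex, which couples transcription and splicing to mRNA export. It was 1.80-fold higher, at 3377 with Nell-1 and 1879 with PBS, and was the only member with more than 1 bright probe set whose bright probe sets all passed 1.5-fold. Its second probe set measured 3046 with Nell-1 and 1602 with PBS, and its dimmest 1095 with Nell-1 and 634 with PBS. All of the Sarnp probe sets are of types that can read several transcripts or related sequences.

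Hnrnpa1, the prototype repressor of exon inclusion, measured 4591 with Nell-1 and 2843 with PBS, 1.61-fold higher, on its brightest probe set. The next gave a similar ratio, with 3225 with Nell-1 and 1834 with PBS. The dimmest probe set, just above the median signal, did not differ by more than 0.03 on the log2 scale, at 65.9 with Nell-1 and 67.1 with PBS. The first 2 are of types that can read related sequences or several transcripts, and Hnrnpa1 has near-identical copies in the mouse genome. A further 3 probe sets, annotated jointly to Hnrnpa1 and such copies and left out of the member count, had log2 ratios of 0.16, 0.41 and 0.55, none past 1.5-fold. The joint probe set at 0.16 measured 7401 with Nell-1 and 6645 with PBS. The one at 0.41 measured 7176 with Nell-1 and 5384 with PBS. Both were brighter than the probe set that represents Hnrnpa1. How much of the signal of any of these probe sets, joint or not, came from Hnrnpa1 itself cannot be told apart.

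Upstream sequence is shown for these 3 genes and for Ptbp1, the lowest member above the median signal, so that the letters before their starts can be compared. Each line gives the 250 bases before the annotated start, 5′ to 3′ on the plus strand, from RefSeq with build GRCm38.p6, at chr11:51262864-51263113 for Clk4, chr10:128821514-128821763 for Sarnp, chr15:103240147-103240396 for Hnrnpa1 and chr10:79854182-79854431 for Ptbp1. Capitals mark every match, on either strand, to 1 of 7 short motifs.
Clk4: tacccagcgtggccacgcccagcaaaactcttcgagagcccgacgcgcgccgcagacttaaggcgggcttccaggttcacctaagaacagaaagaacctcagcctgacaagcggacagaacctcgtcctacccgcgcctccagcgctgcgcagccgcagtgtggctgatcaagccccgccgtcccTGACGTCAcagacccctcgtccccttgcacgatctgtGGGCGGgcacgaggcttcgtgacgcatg
Sarnp: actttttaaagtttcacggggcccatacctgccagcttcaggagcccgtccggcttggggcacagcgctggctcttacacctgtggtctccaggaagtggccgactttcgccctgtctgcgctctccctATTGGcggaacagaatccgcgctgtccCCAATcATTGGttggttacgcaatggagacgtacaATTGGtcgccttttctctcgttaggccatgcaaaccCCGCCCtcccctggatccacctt
Hnrnpa1: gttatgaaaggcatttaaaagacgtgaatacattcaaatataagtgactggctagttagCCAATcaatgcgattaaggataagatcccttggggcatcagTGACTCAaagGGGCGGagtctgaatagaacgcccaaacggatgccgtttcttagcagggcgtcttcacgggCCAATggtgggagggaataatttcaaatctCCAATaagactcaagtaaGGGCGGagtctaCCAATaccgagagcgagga
Ptbp1: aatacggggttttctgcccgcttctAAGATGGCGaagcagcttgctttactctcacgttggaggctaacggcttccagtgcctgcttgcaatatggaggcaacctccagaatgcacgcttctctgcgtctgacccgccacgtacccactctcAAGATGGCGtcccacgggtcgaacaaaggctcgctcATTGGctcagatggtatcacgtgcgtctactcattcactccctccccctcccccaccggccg
The motifs were the GC box (GGGCGG), the CCAAT box (CCAAT), the TATA box (TATAAA), the cAMP response element (TGACGTCA), the AP-1 site (TGACTCA), and cores of the ETS (CCGGAAG) and YY1 (AAGATGGCG) sites. They were searched as exact letters on both strands, and no letters of one motif are contained in another.

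The Clk4 window held 1 cAMP response element and 1 GC box, and the Sarnp window 4 CCAAT boxes and 1 GC box. In Hnrnpa1 there were 4 CCAAT boxes, 2 GC boxes and 1 AP-1 site, and in Ptbp1 2 YY1 cores and 1 CCAAT box. In these 250 bases no motif was common to all 4. Over windows of 300 bases, which add 50 bases after the start, RefSeq promoters were found for 40 of the 43 members, with 54 windows because 8 genes have several. Clk1, Hnrnpll and Hnrnpul2 had no entry. In the windows of 300 bases the GC box was common to all 4 genes shown, the Ptbp1 match lying after its annotated start. A GC box was present in 77.8% of the member windows, against 62.5% of 12004 windows of genes at or above the median signal and 35.7% of all 32851 windows. A CCAAT box was present in 48.1%, against 37.8% and 37.4% in the same 2 backgrounds, and an ETS core in 18.5%, against 17.3% and 8.86%. The cAMP response element was found in 2 member windows, those of Clk4 and Tra2a, or 3.70%, against 3.04% of windows of genes at or above the median signal. Base composition differed as well, with a median GC content of 65.2% in member windows and 61.0% in those of genes at or above the median signal. These are matches of letters and say nothing of binding.

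The hnRNP proteins were the role with the largest share of genes above 0, 17 of 19, and had log2 ratios from -0.16 for Hnrnpl to 0.69 for Hnrnpa1. Within the A/B subfamily, whose members carry paired RNA recognition motifs and a glycine-rich tail, Hnrnpa2b1 measured 11942 with Nell-1 and 9281 with PBS, 1.29-fold higher. All 4 of its probe sets were higher, by 0.36 to 0.78 on the log2 scale, and the dimmest passed 1.5-fold (1190 with Nell-1 and 695 with PBS). Hnrnpa0, an intronless relative, lay near 0, at 4642 with Nell-1 and 4483 with PBS. Hnrnpa3 did not enter the members, because its 4 probe sets are annotated to a second gene as well, and their log2 ratios ran from 0.30 to 0.58.

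The D subfamily, which includes AU-rich element binding proteins that act on mRNA turnover, was higher on the brightest probe set of each gene. Hnrnpdl measured 10296 with Nell-1 and 8312 with PBS, 1.24-fold higher, and all 7 of its probe sets were higher, by 0.18 to 0.46. Hnrnpd (AUF1) measured 5691 with Nell-1 and 4629 with PBS, and its mean over all 3 probe sets, with a dim one, was -0.27. Hnrnpab measured 19718 with Nell-1 and 16245 with PBS, and 4 of its 6 bright probe sets were higher and 2 lower, from -0.25 to 0.34. The brightest probe sets of these 3 relatives therefore gave similar log2 ratios, 0.31, 0.30 and 0.28, and of the 3 only Hnrnpab had bright probe sets on both sides of 0.

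The F/H subfamily binds runs of guanines. Hnrnph3 measured 1039 with Nell-1 and 759 with PBS, and Hnrnph1 measured 1712 with Nell-1 and 1297 with PBS, at log2 ratios of 0.45 and 0.40. Hnrnph2 (1999 with Nell-1 and 1703 with PBS) and Hnrnpf (14655 with Nell-1 and 12805 with PBS) were nearer 0, at 0.23 and 0.19. All 4 genes were thus higher on their brightest probe set, and none reached 1.5-fold. The 4 Hnrnpf probe sets spread from -0.01 to 0.54.

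Other hnRNP genes lay between -0.16 and 0.30. Hnrnpm, which binds GU-rich sequence, measured 2111 with Nell-1 and 1709 with PBS, the highest ratio among them. The C-rich sequence binder Hnrnpk measured 14238 with Nell-1 and 12398 with PBS, with all 4 probe sets higher by 0.11 to 0.28. Hnrnpu, a scaffold-attachment protein, was at 0.05 and its relatives Hnrnpul1 and Hnrnpul2 at -0.02 and 0.18. The 4 bright Hnrnpu probe sets ran from -0.13 to 0.55. Hnrnpr was at 0.20 and its dimmest bright probe set lay just under 1.5-fold, at 308 with Nell-1 and 206 with PBS. Hnrnpc, which binds uridine tracts, was at 0.02 (9942 with Nell-1 and 9815 with PBS). Hnrnpl, a CA-repeat binder that can silence or enhance exons, had the lowest ratio of the group, at 4925 with Nell-1 and 5505 with PBS. Its paralog Hnrnpll, known for controlling CD45 splicing in lymphocytes, was at 0.14 on its brightest probe set and -0.04 on the other.

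**Figure D3:**
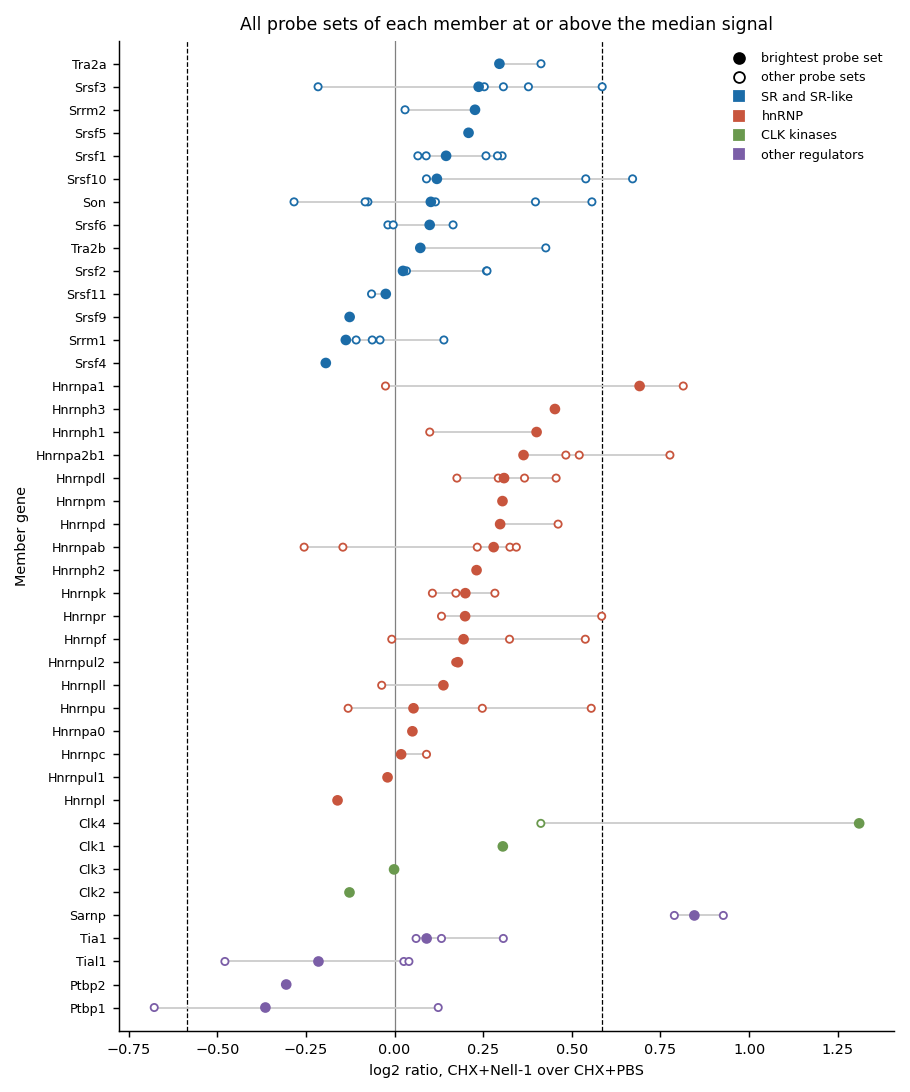
Log2 ratio of CHX+Nell-1 over CHX+PBS for every member probe set at or above the median signal, 118 in all, with 1 row per gene; filled points are the brightest probe set of a gene, open points the others, and dashed lines mark 1.5-fold. The Sarnp points all lie beyond the upper line, those of Clk4 and Hnrnpa1 lie on both sides of it, and most hnRNP points lie to the right of 0.

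None of the 14 SR and SR-like genes at or above the median signal reached 1.5-fold on its brightest probe set, and their log2 ratios ran from -0.19 to 0.30. Srsf1, the founding SR protein, measured 14906 with Nell-1 and 13477 with PBS, and all 6 of its bright probe sets were higher, by 0.07 to 0.30. Srsf3, the smallest SR protein and a link to mRNA export, measured 10741 with Nell-1 and 9113 with PBS. Of its 6 probe sets 5 were higher and 1 lower, and 1 just passed 1.5-fold (2483 with Nell-1 and 1655 with PBS). Srsf10, a splicing repressor when dephosphorylated, was near 0 on its brightest probe set (1201 with Nell-1 and 1106 with PBS), while another probe set passed 1.5-fold (742 with Nell-1 and 466 with PBS). Its 4 probe sets were all higher, from 0.09 to 0.67, so the size of the difference depends on which one is read.

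Of the classical SR proteins, Srsf5 (4602 with Nell-1 and 3983 with PBS) was at 0.21, Srsf6 at 0.10 and Srsf2, which binds both guanine-rich and cytosine-rich enhancers, at 0.02. Srsf11 (-0.02), Srsf9 (-0.13) and Srsf4 were on the lower side. Srsf4 was the lowest of them, with 2791 with Nell-1 and 3192 with PBS, from 1 probe set. Srsf12 was dim, at 1.55 with Nell-1 and 13.6 with PBS. It fell in a range of signal where 66.7% of probe sets pass 1.5-fold either way, so its ratio is unstable. The same range held 25 of the 143 member probe sets, of which 15 passed 1.5-fold, 6 higher and 9 lower.

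Among the SR-like factors, Tra2a had the highest ratio at 0.30 (4055 with Nell-1 and 3303 with PBS). Its paralog Tra2b was at 0.07 (5456 with Nell-1 and 5187 with PBS), and its second probe set at 0.43. Both genes encode enhancer-binding activators of exons. Srrm2, a large speckle scaffold, measured 3300 with Nell-1 and 2820 with PBS. Srrm1, its partner in exon definition and a component of exon junction complexes, was slightly lower, at 3879 with Nell-1 and 4266 with PBS, with 4 of 5 bright probe sets below 0. Son, the other core protein of nuclear speckles, was at 0.10 on its brightest probe set, while its 7 probe sets ran from -0.28 to 0.56 with 4 above and 3 below 0.

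**Figure D4:**
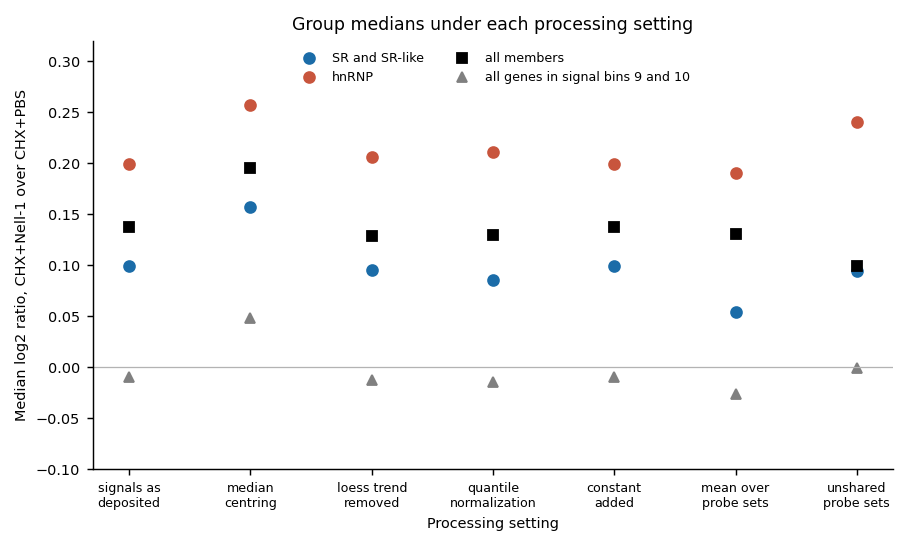
Median log2 ratio of CHX+Nell-1 over CHX+PBS for hnRNP proteins (red), SR and SR-like factors (blue), all members (black) and all genes in the 2 brightest signal bins (grey triangles) under each processing setting. The hnRNP median stays between 0.19 and 0.26 and the SR median between 0.05 and 0.16, while the grey median stays between -0.03 and 0.05.

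The CLK kinases did not move together. Beside Clk4, its closest paralog Clk1 measured 646 with Nell-1 and 522 with PBS, a log2 ratio of 0.31, less than the robust SD of 0.33 at its signal. Clk3 was equal on both arrays to within 0.01 on the log2 scale, at 998 with Nell-1 and 999 with PBS. Clk2 was on the lower side, at 710 with Nell-1 and 775 with PBS. Clk1, Clk2 and Clk3 each had a single probe set, so no second reading was available for them.

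The 2 polypyrimidine tract binding proteins among the members, Ptbp1 and Ptbp2, were on the lower side. Their paralog Ptbp3, not a member, was on the higher side, at 834 with Nell-1 and 647 with PBS, a log2 ratio of 0.37. Ptbp1, which represses exons by binding pyrimidine tracts and is the form of most non-neuronal cells, measured 7764 with Nell-1 and 9993 with PBS, 1.29-fold lower. Its second probe set was 1.60-fold lower, at 493 with Nell-1 and 789 with PBS, the only bright member probe set that passed 1.5-fold on the lower side. A dimmer probe set was at 0.12, with 132 with Nell-1 and 121 with PBS. Ptbp2, the paralog that replaces Ptbp1 in neurons, measured 423 with Nell-1 and 523 with PBS. That log2 ratio of -0.31 was smaller in size than the robust SD of 0.33 at its signal. Its other probe set was below the median signal, at 47.0 with Nell-1 and 11.7 with PBS, so the direction for Ptbp2 rests on 1 probe set.

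Tia1 and Tial1 encode related proteins that bind uridine-rich sequence, recruit the U1 particle to weak 5′ splice sites and enter stress granules. Tia1 measured 1243 with Nell-1 and 1167 with PBS, and its 4 bright probe sets were all higher, by 0.06 to 0.31. Tial1 measured 1233 with Nell-1 and 1430 with PBS, with 2 bright probe sets higher and 2 lower, from -0.48 to 0.04. The paralogs thus lay on opposite sides of 0 on their brightest probe sets, at 0.09 and -0.21, both less than the robust SD of 0.28 at their signal.

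Agreement between probe sets was closer for the members than for genes at large. Of 29 members with several bright probe sets, the brightest pair had the same sign in 26, or 89.7%, against 68.6% of 5195 genes. Probe sets of 1 gene read the same 2 RNA samples, so this describes measurement and not replication, and the members are brighter than most of those genes. All bright probe sets were higher than 0 in 17 of the 29 genes, all were lower in 1 (Srsf11), and 11 had mixed signs. Over all 118 such member probe sets the median log2 ratio was 0.17, with 89 above 0 and 29 below. Of these 118, 9 were at least 1.5-fold higher and 1 at least 1.5-fold lower, against 5.97% higher and 8.48% lower over all probe sets at or above the median signal. The 9 include 3 of Sarnp and 2 of Hnrnpa1, so they are not separate genes, and nothing is read from this count.

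Other parts of the splicing machinery were read from lists chosen by function. Their counts at 1.5-fold stand beside the 4.56% higher and 7.53% lower of all bright genes, and nothing is read from counts this small. Among 24 measured Sm, U1 and U2 particle proteins, which form the core that recognises splice sites, 1 was at least 1.5-fold higher and none lower, with a median log2 ratio of 0.09. That gene was Luc7l3, a U1-associated factor, at 1144 with Nell-1 and 749 with PBS. Of 27 genes of the tri-snRNP and catalytic core 1 was higher, the helicase gene Dhx38 (237 with Nell-1 and 155 with PBS), none was lower, and the median was 0.08. A second Dhx38 probe set was at -0.35. The brightest genes of these lists lay near 0, at -0.02 for the Sm protein gene Snrpg and -0.04 for Prpf19, which encodes a ubiquitin ligase of the spliceosome.

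Genes that act on SR proteins or beside them had similar medians. Of 13 kinases, phosphatases and transport factors of SR proteins none was higher and 1 lower, with a median of 0.10. The lower gene was Srpk3, a muscle SR protein kinase near the median signal, at 48.4 with Nell-1 and 95.2 with PBS. Its dimmer probe sets disagreed, with 1 at 4.65 (60.1 with Nell-1 and 2.40 with PBS), 1 at 1.22 and 1 at -1.89. The brightest of that list was the phosphatase subunit gene Ppp1cc, at -0.10. Of 35 further splicing regulators 2 were higher and none lower, with a median of 0.03. One of them was Srek1, which encodes an SR-like regulator of other SR proteins, at 388 with Nell-1 and 169 with PBS, or 2.30-fold higher. Khdrbs3 was the other, below the median signal. Pcbp1, the brightest of the list, was at -0.25.

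Of 10 exon junction and nonsense-mediated decay genes none was higher and 2 lower, with a median of 0.00. They were the endonuclease gene Smg6, at 250 with Nell-1 and 420 with PBS, and Smg9, a regulator of the SMG1 kinase, which only just reached the threshold at 257 with Nell-1 and 386 with PBS. The kinase gene Smg1 itself was on the other side, at 0.40. Rbm8a, a core protein of the exon junction complex, was the brightest, at 0.34. Of 11 speckle and paraspeckle RNAs and cleavage factors 2 were higher and none lower, with a median of 0.07. Both higher ones are long nuclear RNAs, Neat1, the scaffold of paraspeckles (439 with Nell-1 and 260 with PBS), and Malat1, a speckle RNA (1442 with Nell-1 and 933 with PBS). Pabpn1, a nuclear poly(A) binding protein gene and the brightest of that list, was at 0.07. Across 9 measured reference genes the median was 0.02 and none passed 1.5-fold. Their log2 ratios ran from -0.24 for Tbp to 0.58 for Tfrc, which fell just short of 1.5-fold. The brightest, Rplp0, a ribosomal protein gene, was at -0.05.

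**Figure D5:**
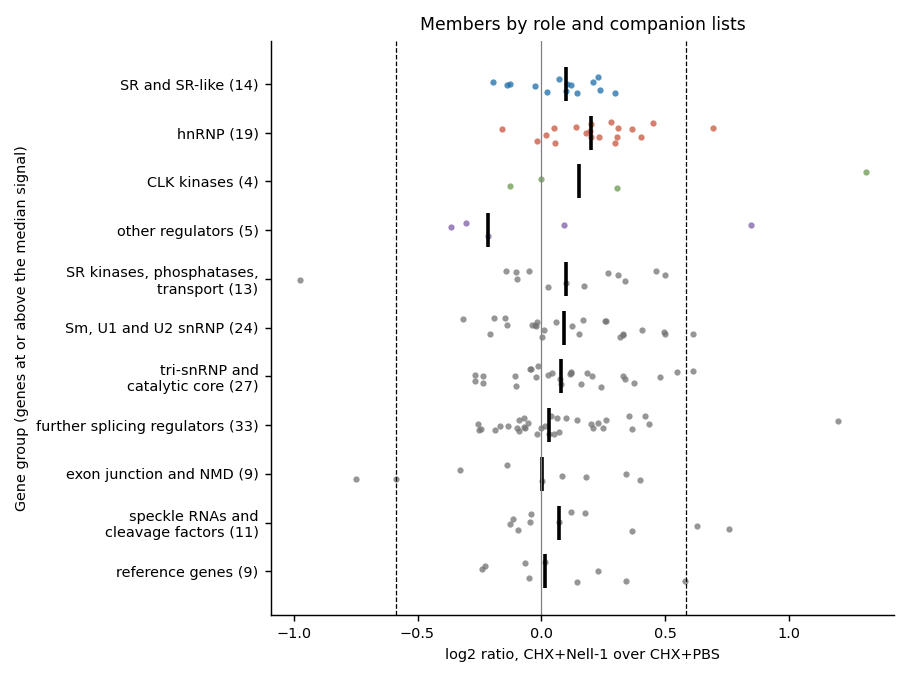
Log2 ratio of CHX+Nell-1 over CHX+PBS for genes at or above the median signal in the 4 role groups of members (coloured) and 7 companion lists (grey), with the number of genes in brackets, medians as black bars and dashed lines at 1.5-fold; vertical scatter within a row has no meaning. The hnRNP bar lies farthest right at 0.20, the companion lists have bars between 0.00 and 0.10, and single genes such as Clk4, Srek1 and Sarnp lie beyond the upper line.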

How the data were processed

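Total RNA of ATDC5 cells was hybridised to Affymetrix mouse arrays, 1 per condition. The deposited values are intensities, linear MAS5 signals per probe set, made by the authors with Affymetrix Expression Console and MAS5 per the submitters' processing notes, which name no version. Columns were assigned by sample name. Of 45101 probe sets 64 controls were kept apart, and symbols came from the platform annotation. All 43 members were found by gene ID in RefSeq (GRCm38.p6) under the same symbol.

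The measure was the log2 ratio of CHX+Nell-1 over CHX+PBS as deposited, with no added constant. With 1 array per group no test was run, and the number of arrays limits the precision. Detection calls were not used, so ratios at low signal are unstable. Robust SDs came from 10 bins of mean signal over both arrays. Calculations used Python 3.11.15, numpy 2.4.6, pandas 2.3.3 and statsmodels 0.14.6. The code was run on simulated arrays with planted 2-fold changes. Noise there was the same at all signals, unlike on these arrays, so calls at 1.5-fold were not tested by it.

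Members and lists were chosen with earlier results of these data known. All members were eligible to be named; those given with both signals were the brightest, the extremes of each role, all CLK kinases and other regulators, and any with a probe set above the median signal past 1.5-fold, with further members added for comparison between paralogs. Of 143 genes in 7 companion lists 129 were measured, and the rest were not analysed here. The named genes of these lists were those past 1.5-fold and the brightest. Smg1, Ptbp3, Tbp and Tfrc were added for comparison with their values known. Alternatives were median centring, loess (span 0.3), quantile normalization, an added constant of 17.9, the mean over probe sets, unshared probe sets, a signal filter and a 2-fold threshold.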

Additional observations from a re-analysis of the deposited data

How the results depend on the processing

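The median log2 ratio over all members stayed between 0.10 and 0.20 under the alternatives, that of hnRNP proteins between 0.19 and 0.26, and that of SR and SR-like factors between 0.05 and 0.16. Clk4, Sarnp and Hnrnpa1 were the 3 higher genes under all rescalings and with the added constant. At 2-fold 1 member was higher, Clk4. With the mean over probe sets the 3 higher genes were Clk4, Sarnp and Ptbp2, the last through a probe set below the median signal. The setting with unshared probe sets only leaves 37 members and drops Clk4 and Sarnp. It leaves out probe sets that read several transcripts of 1 gene as well as those that can read related sequences. With it 2 members were higher (Hnrnpa2b1 and Hnrnpr) and 2 lower (Ptbp1 and Srsf12). Hnrnpr was read there from a probe set just below the median signal, at 81.4 with Nell-1 and 45.2 with PBS. In that setting Hnrnpa1 was at -0.0255, read from its dimmest probe set, and the CLK median was -0.13, from Clk2 alone. Among members at or above the median signal 0 were at least 1.5-fold lower. The sign of a member's ratio differed from the main value for 10 of 43 members with the mean over probe sets, 4 of 37 with unshared probe sets, 3 with median centring, 2 with quantile normalization and 0 with loess or the added constant. Low signal limits Srsf12, whose log2 ratio was -3.13 as deposited and -0.70 with the constant added. Each condition has 1 array, so no replicate could be left out. No paired analysis was possible because the series holds a single pair of arrays.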

Other observations

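The long nuclear RNAs and Srek1 were read by several probe sets each. All 7 bright Malat1 probe sets, those at or above the median signal, were higher with Nell-1, by 0.03 to 1.57 on the log2 scale. The widest difference was on a probe set with 211 with Nell-1 and 70.8 with PBS. Neat1 was higher on both of its probe sets, by 0.76 and 0.38. Srek1 was higher on all 4 bright probe sets, by 1.20, 0.71, 0.47 and 0.15 in order of brightness. Luc7l3 was higher by 0.61 and 0.64 on its 2 bright probe sets and lower, by 0.28, on a dim one (29.6 with Nell-1 and 36.0 with PBS). These genes were chosen after their values were seen, and with 1 array per condition the differences compare 2 RNA samples.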
